A study of Mus musculus with 18 samples.

Results

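The genes described here encode 8 enzymes and transporters that handle quinones, reactive carbonyls and epoxides: *Nqo1*, *Cbr1*, *Cbr3*, *Akr1a1*, *Adh7*, *Ptgr1*, *Ephx1* and *Abcc1*. They were chosen by symbol from the authors' gene count table, where each symbol matched 1 of 56748 genes. All 8 passed the filter on low counts, which left 13691 genes in the tests. *Nqo1* passed it only through the groups in which it was high. The 8 genes and the pathway lists used below were also chosen with earlier results of these data known. Counts of them, with or without *Nqo1*, therefore stand beside the share of all tested genes as a description only, and not as support.

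Transcripts were measured by bulk RNA-seq in RAW 264.7 cells, an immortalised mouse macrophage line, in 6 conditions with 3 libraries each, which the study's methods call biological replicates. The study asked how tert-butylhydroquinone (TBHQ), a synthetic phenolic antioxidant used as a food preservative, alters macrophages before and during stimulation. Controls were kept in medium with no agent added. The TBHQ group received 5 µM TBHQ and was lysed after 4 h. The LPS group received bacterial lipopolysaccharide at 0.1 µg/mL for 12 h, and the PIC group received poly(I:C), a mimic of double-stranded viral RNA, at 20 µg/mL for 12 h. In the LPS + TBHQ and PIC + TBHQ groups, 4 h of TBHQ at 5 µM came first, and the stimulus was then added for another 12 h at the same dose as without TBHQ. The study's legends place every group except TBHQ alone in the 12 h design, so harvest time and TBHQ cannot be told apart in TBHQ against control. Harvest time is likewise part of every difference given below between the TBHQ effect with a stimulus and without one. TBHQ was dissolved in DMSO, and the methods name no DMSO in the sequenced control, LPS or PIC groups. TBHQ and its solvent thus cannot be told apart in any comparison of groups with and without TBHQ, those within a stimulus included.

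Each library held 14423390 to 18851626 counts on genes, with a median of 15742337. At that depth 3 counts, taken as the floor, correspond to 0.159 to 0.208 CPM (counts scaled to library size), a limit that covers counting error only. The 7 macrophage markers summed to 4392 to 5680 FPKM in each library, with *Lyz2* the most abundant. FPKM are fragments scaled to gene length and to a library size that the provider had adjusted by library. Of the 50-base words of *Lyz2*, 15.4% also occur in *Lyz1*. The 3 fibroblast markers summed to 0 to 8 counts in a library, with *Pdgfra* the most abundant and *Col1a2* at 0 in all 18 libraries. *Il1b*, a marker of stimulation, averaged 0.0432 FPKM in the control, 44.9 with LPS and 128 with PIC. *Hmox1*, a marker of the response to TBHQ, averaged 194 FPKM in the control and 829 after 4 h of TBHQ. It does not mark TBHQ alone, at 980 with LPS and 1164 with PIC, against 798 with LPS + TBHQ and 1030 with PIC + TBHQ.

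Quinones are toxic because they accept electrons from cellular enzymes and pass them to oxygen, and because they bond to protein thiols. TBHQ itself is oxidised to such a quinone, which reacts with cysteines of Keap1 and so releases the transcription factor Nrf2 to act on antioxidant response elements. Cells meet quinones and reactive carbonyls by reducing them, by hydrolysing epoxides, by conjugation, and by pumping conjugates out, and macrophages also make such electrophiles from lipids when they are activated.

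A gene was called at an adjusted p below 0.05, and every adjusted p below comes from edgeR's quasi-likelihood fit, adjusted over the 13691 genes by the method of Benjamini and Hochberg, unless another tool is named. In PIC-stimulated cells, TBHQ pre-treatment raised 8 of the 8 genes, where 15.8% of all tested genes were called higher. By total library size 8 of 8 were higher there too, beside 3398 of all 13691 genes. In LPS-stimulated cells it raised 7 of the 8, with *Cbr1* the exception, where 11.7% of all tested genes were called higher. Lower calls were made for 0 of 8 genes in LPS + TBHQ against LPS and for 0 of 8 in PIC + TBHQ against PIC, against 12.2% and 15.5% of all tested genes. In both comparisons edgeR gave 0 lower genes among the 8 at an unadjusted p below 0.05 as well, and DESeq2 called 0. After 4 h of TBHQ without a stimulus the picture was mixed: *Nqo1*, *Cbr3* and *Abcc1* were higher (3 of 8, against 14.2% of all tested genes) and *Adh7* and *Akr1a1* were lower (2 of 8, against 14.8%).

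Stimulation alone moved the genes in both directions. With LPS, 5 of 8 were higher than the control (*Nqo1*, *Adh7*, *Ptgr1*, *Akr1a1* and *Abcc1*, against 24% of all tested genes) and *Ephx1* was lower (1 of 8, against 24.1%). With PIC, *Ptgr1*, *Akr1a1* and *Abcc1* were higher (3 of 8, against 28.6% of all tested genes) and *Cbr1*, *Cbr3* and *Ephx1* were lower (3 of 8, against 30.1%), both shares near the background. By total library size 1 of 8 was higher there and 4 of 8 lower, with 2379 and 6635 of all 13691 genes, so the lower count is again near the background, and under DESeq2 1 of 8 was lower, with 3600 of all genes. In PIC against LPS, *Akr1a1* and *Abcc1* were higher (2 of 8, against 14.9%) and *Cbr3*, *Adh7* and *Ptgr1* were lower (3 of 8, against 12.8%). Without a filter on low counts, under DESeq2, or with the 2 compared conditions fitted alone, 3 of 8 rather than 5 of 8 were called there. Over all genes these settings called 3493, 3378 and 3293, against 3787 of 13691 in the main fit, and the number of genes tested differs by setting. By total library size 0 of 8 were higher there and 4 of 8 lower, beside 985 and 4373 of all 13691 genes, with *Akr1a1* and *Abcc1* lost and *Cbr1* newly called (-0.29, adjusted p = 0.00845, with 0.00845 to 0.443 over the alternatives).

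Against the control, 6 of 8 genes were higher in LPS + TBHQ (against 21.2% of all tested genes) and 6 of 8 in PIC + TBHQ (against 26.4%), in both cases with *Cbr1* and *Ephx1* as the exceptions. Lower calls came to 0 of 8 in each, against 22.5% and 26%, with 0 at an unadjusted p below 0.05 in edgeR and 0 in DESeq2. Without control replicate 1, *Ephx1* was called lower in both, and by total library size it was called lower in PIC + TBHQ. Counting higher genes alone under the study's stricter limits, an adjusted p below 0.01 and a log2 fold change (log2FC) above 2, *Nqo1* was the only one of the 8 that passed in any of the 5 comparisons given here. It was 1 of 8 in TBHQ against control (against 0.0803% of all tested genes called higher by these limits), in PIC + TBHQ against PIC (0.0584%), in LPS + TBHQ against control (0.84%) and in PIC + TBHQ against control (1.76%), and 0 of 8 passed in LPS + TBHQ against LPS (0.0365%). The comparisons with the control share its 3 libraries, and TBHQ + stimulus groups serve in 2 comparisons each, so these counts are not independent of each other. Each count of 1 is *Nqo1*, which passed the filter on low counts through its high groups, so these counts describe *Nqo1* and are not support.

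**Figure D1:**
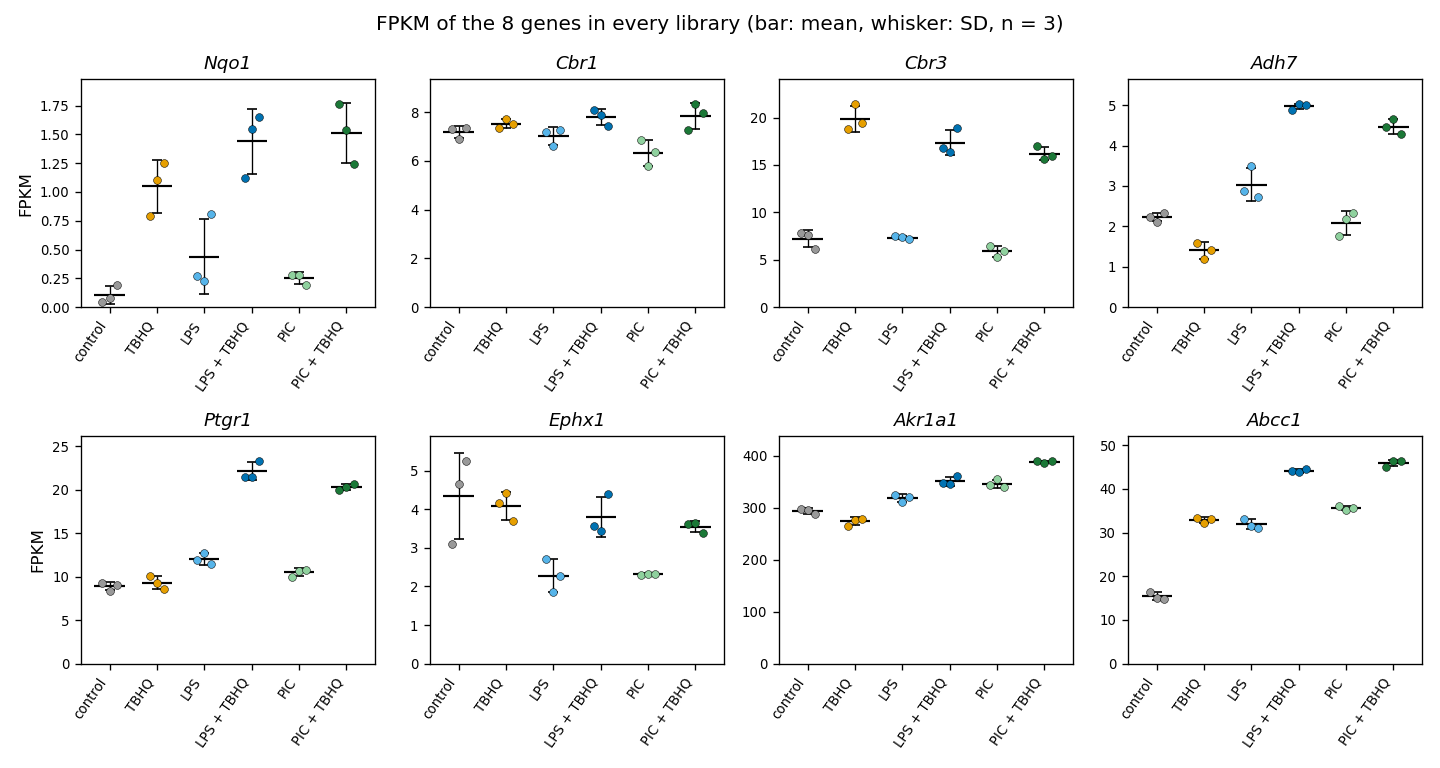
FPKM (vertical axes, linear, from 0) of each of the 8 genes in the 6 conditions (horizontal axes). Points are single libraries, bars the mean and whiskers the SD (n = 3); *Cbr3* lay at 15.6 to 21.4 FPKM in the 9 libraries with TBHQ and at 5.34 to 7.79 in the 9 without.

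*Nqo1* (ENSMUSG00000003849, chromosome 8, 108114857 to 108129838, minus strand) encodes NAD(P)H quinone dehydrogenase, which reduces quinones to hydroquinones. It was the least abundant of the 8 genes, with a mean of 0.799 FPKM over the 18 libraries. The control libraries held 1, 2 and 5 counts (0.0419, 0.079 and 0.191 FPKM), and the TBHQ libraries 21, 28 and 33 counts (0.793, 1.1 and 1.25 FPKM). LPS libraries held 6, 5 and 18 counts (0.272, 0.224 and 0.81 FPKM), and LPS + TBHQ libraries 29, 40 and 45 counts (1.12, 1.55 and 1.65 FPKM). With PIC there were 6, 6 and 5 counts (0.283, 0.278 and 0.19 FPKM), and with PIC + TBHQ 42, 34 and 31 counts (1.76, 1.54 and 1.24 FPKM). Every library with TBHQ thus lay above every library of its own group without TBHQ, and LPS replicate 3 stood well above the other 2 LPS libraries.

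Summed over replicates and scaled by library size, *Nqo1* counts were 9.85 times the control with TBHQ (82 against 8 counts, exact 95% interval 4.77 to 23.6), an interval that covers counting error only. The ratio was 3.31 for LPS + TBHQ against LPS (114 against 29 counts, 2.18 to 5.16) and 6.19 for PIC + TBHQ against PIC (107 against 17 counts, 3.69 to 11). The fitted *Nqo1* log2FC was 3.24 ± 0.38 (SE) for TBHQ against control (adjusted p = 3.51e-06), 1.71 ± 0.51 within LPS (adjusted p = 0.000594) and 2.60 ± 0.20 within PIC (adjusted p = 5.08e-06), higher in 3 of 3 libraries each time. Here and below the SE comes from the replicates' log2 CPM and not from the fit, and at few counts its prior count narrows it. The *Nqo1* log2FC values rest on few counts: without control replicate 3 the first was 3.99, and without LPS replicate 3 the second was 2.51. In limma on log2(FPKM + 1), which shrinks low levels, the 3 values were 0.89, 0.78 and 1.00, each still called. The TBHQ effect on *Nqo1* did not pass the test of a difference between settings, at -1.53 ± 0.64 for LPS minus unstimulated (adjusted p = 0.119), -0.64 ± 0.43 for PIC minus unstimulated (adjusted p = 0.572) and 0.89 ± 0.55 for PIC minus LPS (adjusted p = 0.543). With each library left out in turn these 3 *Nqo1* differences ran from -2.28 to -0.73, from -1.39 to -0.30 and from 0.07 to 1.19, and none was called.

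LPS alone raised *Nqo1* by 1.98 ± 0.59 on the log2 scale (adjusted p = 0.00561, higher in 3 of 3 libraries), with a count ratio of 4.08 (interval 1.82 to 10.3). That call was lost without LPS replicate 3, where the log2FC was 1.19 with an adjusted p of 0.154, and over all libraries left out in turn its adjusted p ran from 0.00196 to 0.154. Without control replicate 3 the *Nqo1* log2FC with LPS was 2.73. It was also lost in limma on log2(FPKM + 1), at 0.36 and an adjusted p of 0.0577, against 0.00264 to 0.0577 over the alternatives that gave a value. PIC alone gave a count ratio of 2.29 (interval 0.937 to 6.14) and a log2FC of 1.16 ± 0.36 (adjusted p = 0.132), which did not pass, nor did it without control replicate 3 (1.91, adjusted p = 0.0524) or in limma on log2(FPKM + 1) (0.18, adjusted p = 0.328, with 0.0653 to 0.328 over the alternatives). By mean FPKM the order was PIC + TBHQ (1.52), LPS + TBHQ (1.44), TBHQ (1.05), LPS (0.436), PIC (0.25) and control (0.104), and the libraries of each neighbouring pair in that order overlapped.

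Of the 3 genes whose products reduce carbonyls, *Cbr3* followed TBHQ, while *Cbr1* and *Akr1a1* moved little. *Cbr1* (ENSMUSG00000051483, chromosome 16, 93402741 to 93407393, plus strand) and *Cbr3* (ENSMUSG00000022947, chromosome 16, 93480103 to 93487878, plus strand) encode NADPH-dependent carbonyl reductases and are neighbours on the chromosome. *Cbr1* was measured at 7.3, 6.9 and 7.37 FPKM in the control libraries and at 7.33, 7.71 and 7.53 FPKM with TBHQ. With LPS it was at 7.19, 6.6 and 7.28 FPKM, and with LPS + TBHQ at 8.08, 7.87 and 7.45 FPKM. The PIC libraries had 6.85, 5.78 and 6.36 FPKM of *Cbr1*, and the PIC + TBHQ libraries 7.27, 8.32 and 7.98 FPKM. Its levels were close to flat, with the highest group mean 1.24 times the lowest and the libraries of each neighbouring pair of groups overlapping.

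*Cbr1* rose with TBHQ in PIC-stimulated cells, by 0.32 ± 0.09 on the log2 scale (adjusted p = 0.00354, 3 of 3 libraries higher), while PIC alone lowered it by 0.20 (log2FC -0.20 ± 0.08, adjusted p = 0.044, 3 of 3 libraries lower). The fall with PIC was lost in 5 of 9 alternatives, among them DESeq2 (adjusted p = 0.152, over a range of 6.38e-05 to 0.152 among the 9), and without any 1 of 9 libraries, most of all PIC replicate 2 (-0.13, adjusted p = 0.264). The others of these 9 were control replicates 1 (adjusted p = 0.0959) and 3 (0.112), LPS replicates 1 (0.0523), 2 (0.0628) and 3 (0.0654), PIC replicate 3 (0.106), and PIC + TBHQ replicates 2 (0.0501) and 3 (0.0539). In LPS + TBHQ against LPS the *Cbr1* log2FC was 0.15 ± 0.05 (adjusted p = 0.214), and in TBHQ against control 0.06 ± 0.04 (adjusted p = 0.624), neither of which passed. The difference of the TBHQ effect on *Cbr1* was not called between PIC and LPS (0.17 ± 0.11, adjusted p = 0.562) or between PIC and unstimulated cells (0.26 ± 0.10, adjusted p = 0.11). By total library size the latter became a call (0.33, adjusted p = 0.035, with 0.035 to 0.278 over the alternatives).

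*Cbr3* was the carbonyl reductase of the 8 with the largest change. Its level was 7.79, 7.64 and 6.18 FPKM in the control libraries and 18.8, 21.4 and 19.4 FPKM with TBHQ. LPS libraries had 7.46, 7.39 and 7.14 FPKM, and LPS + TBHQ libraries 16.8, 16.4 and 18.9 FPKM. PIC libraries had 6.43, 5.34 and 5.89 FPKM, and PIC + TBHQ libraries 17, 15.6 and 16 FPKM. The 9 libraries with TBHQ lay wholly above the 9 without it, whatever the stimulus.

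The *Cbr3* log2FC was 1.46 ± 0.12 for TBHQ against control (adjusted p = 3.3e-14), 1.24 ± 0.07 for LPS + TBHQ against LPS (adjusted p = 3.37e-12) and 1.47 ± 0.08 for PIC + TBHQ against PIC (adjusted p = 1.3e-13), higher in 3 of 3 libraries in each. None of the 3 differences between these effects passed its test: -0.22 ± 0.14 for LPS minus unstimulated (adjusted p = 0.331), 0.01 ± 0.15 for PIC minus unstimulated (0.973) and 0.23 ± 0.11 for PIC minus LPS (0.534). Without TBHQ, LPS gave 0.02 ± 0.11 against the control (adjusted p = 0.901). PIC lowered *Cbr3* slightly, by -0.31 ± 0.13 against the control (adjusted p = 0.0245, 2 of 3 libraries below all controls) and by -0.33 ± 0.08 against LPS (adjusted p = 0.0373, 3 of 3 below). The first of these calls was lost in 3 of 9 alternatives, among them DESeq2 (adjusted p = 0.0768, with 0.000167 to 0.0768 over the alternatives) and without control replicate 1 (0.107) or 2 (0.0947) or PIC replicate 2 (0.134) or 3 (0.0664). The second was lost in 3 of 9 alternatives, among them DESeq2 (adjusted p = 0.0764, with 0.00223 to 0.0847 over the alternatives) and without LPS replicate 1 (0.0891), 2 (0.0849) or 3 (0.0611) or PIC replicate 2 (0.157) or 3 (0.0825). By mean FPKM the order was TBHQ (19.8), LPS + TBHQ (17.4) and PIC + TBHQ (16.2), whose neighbours overlapped, then with a gap LPS (7.33), control (7.2) and PIC (5.88), whose neighbours overlapped as well.

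*Akr1a1* (ENSMUSG00000028692, chromosome 4, 116493707 to 116508877, minus strand) encodes aldehyde reductase, an aldo-keto reductase. At a mean of 328 FPKM over the 18 libraries it was the most abundant of the 8 genes on the scale per length. The control libraries had 298, 296 and 287 FPKM and the TBHQ libraries 265, 277 and 279 FPKM. With LPS the level was 325, 310 and 320 FPKM, and with LPS + TBHQ 347, 345 and 360 FPKM. With PIC it was 344, 355 and 340 FPKM, and with PIC + TBHQ 390, 385 and 389 FPKM. The libraries of the control, TBHQ, LPS and PIC + TBHQ groups each formed a band of their own, and those of PIC and LPS + TBHQ overlapped. These bands depend on the scaling of the FPKM, as calls for *Akr1a1* below do.

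The *Akr1a1* changes were small: -0.10 ± 0.03 for TBHQ against control (adjusted p = 0.0091, 3 of 3 libraries lower), 0.14 ± 0.03 within LPS (adjusted p = 0.000677, 3 of 3 higher) and 0.17 ± 0.02 within PIC (adjusted p = 2.25e-05, 3 of 3 higher), all log2FC. The fall with TBHQ alone was lost without TBHQ replicate 1 (-0.08, adjusted p = 0.0646, over 0.00789 to 0.0646 with each library left out in turn). LPS raised *Akr1a1* by 0.11 ± 0.03 (adjusted p = 0.00306), PIC raised it by 0.22 ± 0.02 (adjusted p = 8.88e-08), and PIC against LPS gave 0.11 ± 0.03 (adjusted p = 0.00471), in 3 of 3 libraries each. Scaled by total library size in place of TMM (edgeR's trimmed mean scaling), these 3 calls were lost, at 0.02 (adjusted p = 0.57, with 7.28e-05 to 0.57 over the alternatives), 0.00 (0.916, with 5.05e-18 to 0.916) and -0.02 (0.671, with 5.58e-05 to 0.671), the last with its sign turned. That scaling moved the median log2FC of all tested genes to -0.09 in LPS against control, -0.23 in PIC against control and -0.14 in PIC against LPS (and to -0.15 in PIC + TBHQ against control), and the *Akr1a1* values are relative to those medians. The direction with TBHQ differed by setting, with a difference of 0.24 ± 0.04 for LPS minus unstimulated (adjusted p = 6.93e-05) and 0.28 ± 0.03 for PIC minus unstimulated (adjusted p = 5.88e-06). Stimulus and harvest time cannot be told apart in these differences.

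*Adh7* (ENSMUSG00000055301, chromosome 3, 137923521 to 137939143, plus strand) encodes an alcohol dehydrogenase that also acts on retinol. Its level was 2.24, 2.12 and 2.33 FPKM in the control libraries and 1.6, 1.2 and 1.41 FPKM with TBHQ. In the LPS libraries it was 2.88, 3.49 and 2.73 FPKM, against 4.89, 5.02 and 5 FPKM in the LPS + TBHQ libraries. In the PIC libraries it was 1.76, 2.17 and 2.32 FPKM, against 4.45, 4.65 and 4.28 FPKM in the PIC + TBHQ libraries. TBHQ alone thus gave the lowest *Adh7* libraries of the study and TBHQ with a stimulus the highest, with no overlap between them. A long noncoding RNA gene on the opposite strand, *0610031O16Rik*, overlaps *Adh7* and held 0 to 10 counts per library against a mean of 181 for *Adh7*, and whether the counting used strand is not given in the sources used here.

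*Adh7* fell by 0.67 with TBHQ alone (log2FC -0.67 ± 0.12, adjusted p = 0.000127, 3 of 3 libraries lower) and rose by 0.71 ± 0.11 within LPS (adjusted p = 3.04e-06) and by 1.10 ± 0.12 within PIC (adjusted p = 1.4e-09), in 3 of 3 libraries each. The turn in direction passed its own test, with a difference of 1.38 ± 0.16 for LPS minus unstimulated (adjusted p = 1.14e-07) and 1.77 ± 0.17 for PIC minus unstimulated (adjusted p = 7.73e-10). Stimulus and harvest time cannot be told apart in this turn. The difference of the *Adh7* effect between PIC and LPS was not called (0.39 ± 0.16, adjusted p = 0.229). LPS alone raised *Adh7* by 0.44 ± 0.11 (adjusted p = 0.00242, 3 of 3 libraries), and PIC alone gave -0.11 ± 0.12 (adjusted p = 0.483). PIC lay below LPS by -0.54 ± 0.16 (adjusted p = 0.000697, 3 of 3 libraries). By total library size PIC against control was called lower, at -0.32 (adjusted p = 0.0232, with 0.0232 to 0.677 over the alternatives). The order by mean FPKM was LPS + TBHQ (4.97), PIC + TBHQ (4.46), LPS (3.04), control (2.23), PIC (2.08) and TBHQ (1.4), in which the control and PIC were the one neighbouring pair whose libraries overlapped.

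*Ptgr1* (ENSMUSG00000028378, chromosome 4, 58965439 to 58987119, minus strand) encodes prostaglandin reductase 1, which reduces the double bond of reactive enones and inactivates leukotriene B4. The control libraries had 9.25, 8.39 and 9.05 FPKM and the TBHQ libraries 10.1, 9.3 and 8.53 FPKM. The LPS libraries had 11.9, 12.7 and 11.4 FPKM and the LPS + TBHQ libraries 21.5, 21.5 and 23.3 FPKM. The PIC libraries had 9.99, 10.7 and 10.8 FPKM and the PIC + TBHQ libraries 19.9, 20.3 and 20.6 FPKM. Control and TBHQ overlapped, while both stimuli after TBHQ lay near 20 FPKM or above, clear of every other library.

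*Ptgr1* did not pass with TBHQ alone (log2FC 0.06 ± 0.08, adjusted p = 0.598) and rose by 0.88 ± 0.06 within LPS (adjusted p = 7.12e-13) and 0.96 ± 0.04 within PIC (adjusted p = 1.27e-13), higher in 3 of 3 libraries in both. With a stimulus, and at the later harvest, the effect of TBHQ on *Ptgr1* was larger by 0.82 ± 0.10 for LPS (adjusted p = 1.43e-07) and by 0.90 ± 0.09 for PIC (adjusted p = 1.82e-08). Between PIC and LPS the difference was 0.08 ± 0.07 (adjusted p = 0.766). LPS alone raised it by 0.43 ± 0.06 (adjusted p = 1.01e-05, 3 of 3 libraries). The rise with PIC alone, 0.22 ± 0.05 (adjusted p = 0.012, 3 of 3 libraries), was lost by total library size (0.00, adjusted p = 0.977, with 0.00407 to 0.977 over the alternatives) and without control replicate 2 (0.18, adjusted p = 0.0704). *Ptgr1* was lower with PIC than with LPS by -0.21 ± 0.06 (adjusted p = 0.0343, 3 of 3 libraries), a call lost in 3 of 9 alternatives, among them DESeq2 (adjusted p = 0.0786, with 0.000446 to 0.0852 over the alternatives). It was lost as well without LPS replicate 1 (0.0593) or 2 (0.177) or PIC replicate 1 (0.138) or 2 (0.0605). The order by mean FPKM was LPS + TBHQ (22.1), PIC + TBHQ (20.3), LPS (12), PIC (10.5), TBHQ (9.3) and control (8.9), with overlap between PIC and TBHQ and between TBHQ and control.

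*Ephx1* (ENSMUSG00000038776, chromosome 1, 180803775 to 180848469, minus strand) encodes microsomal epoxide hydrolase, which opens epoxides to diols. The control libraries spread widely, at 3.11, 4.66 and 5.25 FPKM, beside 4.15, 4.42 and 3.7 FPKM with TBHQ. With LPS the level was 2.71, 1.86 and 2.26 FPKM and with LPS + TBHQ 3.56, 3.43 and 4.38 FPKM. With PIC it was 2.29, 2.32 and 2.33 FPKM and with PIC + TBHQ 3.61, 3.65 and 3.39 FPKM. Libraries of cells that received a stimulus without TBHQ were thus the 6 lowest of the 18.

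Both stimuli lowered *Ephx1*, LPS by -0.94 ± 0.27 (adjusted p = 1.32e-05) and PIC by -0.93 ± 0.22 (adjusted p = 1.04e-05), 3 of 3 libraries lower in each. TBHQ before the stimulus raised it by 0.74 ± 0.19 within LPS (adjusted p = 0.00116) and by 0.62 ± 0.03 within PIC (adjusted p = 0.00502), 3 of 3 libraries higher in each. TBHQ alone gave -0.09 ± 0.24 (adjusted p = 0.7). With harvest time part of both, the difference of the TBHQ effect was 0.83 ± 0.30 for LPS minus unstimulated (adjusted p = 0.00827) and 0.72 ± 0.24 for PIC minus unstimulated (adjusted p = 0.0185). The last call was lost without control replicate 3 (0.56, adjusted p = 0.085) and in 2 of 9 alternatives, limma on log2(FPKM + 1) (0.50, adjusted p = 0.073) and on log2(FPKM + 0.1) (0.65, adjusted p = 0.0662), with 0.0087 to 0.073 over the 9. Against the control, the *Ephx1* log2FC was -0.21 ± 0.25 in LPS + TBHQ (adjusted p = 0.283) and -0.30 ± 0.23 in PIC + TBHQ (adjusted p = 0.101). Without control replicate 1, the lowest control library, both became lower calls, at -0.39 (adjusted p = 0.0309) and -0.49 (adjusted p = 0.00666), and by total library size the second did too (-0.45, adjusted p = 0.0126, with 0.0126 to 0.251 over the alternatives). By mean FPKM control (4.34), TBHQ (4.09), LPS + TBHQ (3.79) and PIC + TBHQ (3.55) overlapped as neighbours, and PIC (2.32) and LPS (2.27), which overlapped each other, lay below.

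*Abcc1* (ENSMUSG00000023088, chromosome 16, 14179422 to 14293601, plus strand) encodes multidrug resistance-associated protein 1, a pump that exports glutathione conjugates. Its libraries had 16.5, 15.1 and 14.9 FPKM in the control and 33.3, 32.1 and 33.1 FPKM with TBHQ. With LPS they had 33.2, 31.5 and 31 FPKM, and with LPS + TBHQ 44, 43.8 and 44.6 FPKM. With PIC they had 36.1, 35.1 and 35.6 FPKM, and with PIC + TBHQ 45.1, 46.4 and 46.3 FPKM. Each single treatment put all of its libraries near 2 times the control level, and TBHQ with a stimulus lay higher again.

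The *Abcc1* log2FC against the control was 1.08 ± 0.05 with TBHQ (adjusted p = 7.25e-23), 1.03 ± 0.06 with LPS (adjusted p = 2.88e-23) and 1.18 ± 0.05 with PIC (adjusted p = 2.15e-25), in 3 of 3 libraries each. Given before the stimulus, TBHQ raised it by 0.47 ± 0.03 within LPS (adjusted p = 3.86e-13) and by 0.38 ± 0.02 within PIC (adjusted p = 5.93e-11), 3 of 3 libraries higher in each. The TBHQ effect on *Abcc1* was smaller with a stimulus, at the later harvest, than without, by -0.61 ± 0.06 for LPS (adjusted p = 1.16e-11) and -0.70 ± 0.05 for PIC (adjusted p = 2.49e-13). PIC lay above LPS by 0.15 ± 0.03 (adjusted p = 0.00127, 3 of 3 libraries), a call lost by total library size (0.02, adjusted p = 0.698, with 1.25e-05 to 0.698 over the alternatives). By mean FPKM the order was PIC + TBHQ (45.9), LPS + TBHQ (44.1), PIC (35.6), TBHQ (32.8), LPS (31.9) and control (15.5), and TBHQ and LPS were the one neighbouring pair that overlapped.

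**Figure D2:**
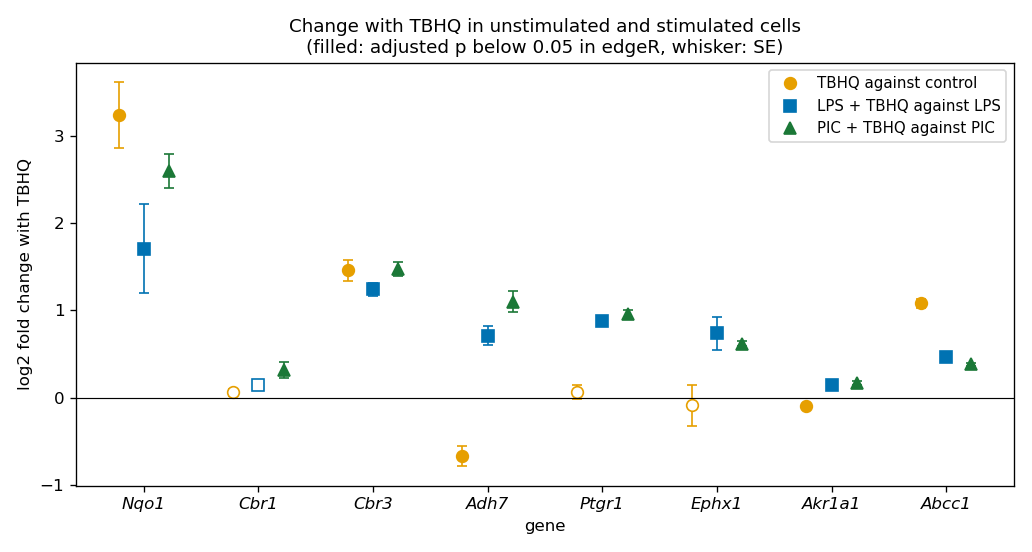
Log2 fold change with TBHQ (vertical axis) of each of the 8 genes (horizontal axis) without a stimulus, with LPS and with PIC, whiskers showing the SE (n = 3 against 3) and filled symbols an adjusted p below 0.05. *Adh7* went from -0.67 without a stimulus to 0.71 with LPS and 1.10 with PIC, and *Abcc1* from 1.08 to 0.47 and 0.38.

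Tests of the difference between settings called 4 of 8 genes with a higher TBHQ effect in LPS-stimulated than in unstimulated cells (*Adh7*, *Ptgr1*, *Ephx1* and *Akr1a1*, against 9.14% of all tested genes) and *Abcc1* with a lower one (1 of 8, against 9.33%). With PIC the calls fell on the same 4 genes as higher (4 of 8, against 13.3%) and on *Abcc1* as lower (1 of 8, against 12.5%). Both lower counts are near the background. Both differences use the control and TBHQ libraries, and harvest time is part of both, since TBHQ alone was lysed at 4 h. Between PIC and LPS the TBHQ effect was called different for 0 of 8 genes, higher (against 0.825% of all tested genes) or lower (against 1.01%). In edgeR 1 gene, *Adh7*, had an unadjusted p below 0.05 for a higher effect and 0 genes for a lower one, and DESeq2 called 0 genes in either direction.

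On the scale per length, mean FPKM over the 18 libraries ran from 0.799 for *Nqo1* through 3.03 for *Adh7*, 3.39 for *Ephx1*, 7.29 for *Cbr1*, 12.3 for *Cbr3*, 13.8 for *Ptgr1* and 34.3 for *Abcc1* to 328 for *Akr1a1*. The ratio of the highest to the lowest group mean FPKM was 3.55 for *Adh7*, 3.37 for *Cbr3*, 2.96 for *Abcc1*, 2.48 for *Ptgr1*, 1.91 for *Ephx1*, 1.42 for *Akr1a1* and 1.24 for *Cbr1*. For *Nqo1*, whose control held 8 counts in all, the count ratio of PIC + TBHQ to control was 14.2 with an exact 95% interval of 6.94 to 33.7. The fitted log2FC of that comparison was 3.77 ± 0.36, and 4.51 without control replicate 3 or 1.19 in limma on log2(FPKM + 1). In these bulk samples, fewer cells with a transcript and less of it per cell cannot be told apart. No member shared more than 1.85% of its 50-base words with another gene, the highest share being that of *Cbr1*.

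Among the 8, *Adh7* and *Ptgr1* had the most similar profiles, with a Pearson r of log2 CPM of 0.92 over the 18 libraries, followed by *Nqo1* and *Cbr3* at 0.83. *Ephx1* ran apart from most, at 0.57 with *Cbr1* and -0.25 with *Akr1a1*. These r values describe libraries that fall into 6 conditions with 3 libraries each, and are not a test. Among 10450 other genes with a mean of at least 50 counts, those most like *Cbr3* were *Akr1b3* (0.98), *Rnf128* (0.96) and *H6pd* (0.96). *Abcc1* was most like *Layn*, *Srxn1* and *G6pdx* (0.99 each), and *Ptgr1* most like *Slc20a1* (0.97), *Abcb4* (0.95) and *Serpinb9b* (0.95). For *Adh7* the nearest genes were *Derl1* (0.95), *Abhd11* (0.94) and *Ceacam1* (0.93), and for *Akr1a1* the nearest 2 were *Atp6v0d1* (0.98) and *Glmp* (0.98). *Sec24d*, *Gclm* and *Panx1* (0.95 each, among 10451 genes) were closest to *Nqo1*. The nearest genes were less alike for *Ephx1*, with *Sppl3* (0.89), *Uap1l1* (0.88) and *Mfge8* (0.87), and for *Cbr1*, with *Isl2*, *Rmdn3* and *Cd151* (0.83 each).

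The lists of quinone reduction, carbonyl reduction, dehydrogenases, enone reduction, epoxide hydrolysis, efflux and quinol conjugation hold 67 symbols beside the 8. One of them, *Akr1b1*, is an alternative symbol of *Akr1b3*. The other 66 matched a gene, and 41 were tested. TBHQ pre-treatment raised 11 and lowered 2 of these 41 within LPS, where 11.7% of all tested genes were higher and 12.2% lower, and raised 16 and lowered 0 within PIC, where 15.8% were higher and 15.5% lower. With single agents, TBHQ alone raised 7 and lowered 10 of the 41 (all genes 14.2% and 14.8%, so the higher count is near the background). LPS alone raised 10 and lowered 10 (24% and 24.1%, near the background both ways). PIC alone raised 9 and lowered 17 (28.6% and 30.1%, so the higher count is near the background). By total library size 2379 and 6635 of all 13691 genes were higher and lower with PIC, so these shares depend on the scaling. Counting the 8 genes with their lists, the largest rises among carbonyl reductases were shared by *Cbr3* and *Akr1b8*, an aldo-keto reductase that averaged 68.1 FPKM in the control, 187 with TBHQ, 133 with LPS and 275 with LPS + TBHQ. *Akr1b8* rose by 1.45 ± 0.07 with TBHQ alone (adjusted p = 2.12e-24), 1.04 ± 0.04 within LPS (adjusted p = 6.72e-21) and 1.15 ± 0.02 within PIC (adjusted p = 1.21e-21), in 3 of 3 libraries each. *Akr1b3*, aldose reductase, rose by 0.72 ± 0.05, 0.68 ± 0.07 and 0.68 ± 0.05 in the same comparisons (adjusted p = 5e-15, 1.37e-14 and 2.13e-14), also in 3 of 3 libraries each.

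Within the carbonyl reduction list, 14 of 19 matched genes were tested, and TBHQ raised 4 and lowered 2 within LPS (all genes 11.7% and 12.2%, so the lower count is near the background) and raised 7 and lowered 0 within PIC (15.8% and 15.5%). The 2 lowered were *Dhrs3*, a retinal reductase (-0.12 ± 0.03, adjusted p = 0.0364), and *Akr1b7*, with 9 counts summed over the LPS + TBHQ libraries against 25 with LPS (ratio 0.303, exact 95% interval 0.124 to 0.671). *Akr1b7* was also lower with TBHQ alone, at 9 against 51 summed counts (ratio 0.17, interval 0.0734 to 0.348). Its mean count was 17 in the control and 3 to 8.33 in the other groups. Since *Akr1b7* was high in the control only, its falls and the counts that include it are descriptions and not support. The 7 raised within PIC were *Cbr1*, *Cbr3*, *Akr1a1*, *Akr1b3*, *Akr1b8*, *Akr1b10* (0.32 ± 0.11, adjusted p = 0.00445) and *Akr1c13* (0.80 ± 0.23, adjusted p = 0.00137). *Akr1c13* is uncertain, since 24.2% of its words occur in *Akr1c12*.

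Quinone reduction held 10 tested genes, of which TBHQ raised 2 within LPS (*Nqo1* and *Xdh*, near the 11.7% of all genes) and 5 within PIC (*Nqo1*, *Nqo2*, *Aifm2*, *Cyb5r3* and *Xdh*, against 15.8%), and lowered 0 in both (against 12.2% and 15.5%). *Xdh*, xanthine dehydrogenase, rose by 0.38 ± 0.04 within LPS (adjusted p = 8.24e-06) and 0.72 ± 0.08 within PIC (adjusted p = 1.61e-10), and was lower with TBHQ alone (-0.23 ± 0.06, adjusted p = 0.00365), in 3 of 3 libraries each. *Nqo2*, the paralog of *Nqo1*, was likewise lower with TBHQ alone (-0.21 ± 0.08, adjusted p = 0.0184) and higher within PIC (0.27 ± 0.07, adjusted p = 0.00584). *Por*, the electron donor of cytochromes P450, rose with TBHQ alone (0.36 ± 0.05, adjusted p = 2.86e-09) and gave -0.03 ± 0.04 within LPS (adjusted p = 0.577) and 0.04 ± 0.03 within PIC (adjusted p = 0.496).

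Of the alcohol and aldehyde dehydrogenases, 8 of 18 were tested, and TBHQ raised 4 and lowered 0 within LPS (all genes 11.7% and 12.2%) and within PIC (15.8% and 15.5%) alike: *Adh7*, *Aldh2*, *Aldh3b1* and *Aldh9a1*. *Aldh2*, the mitochondrial aldehyde dehydrogenase, rose by 0.17 ± 0.05 (adjusted p = 0.00139) and 0.31 ± 0.02 (adjusted p = 9.23e-08), and *Aldh9a1* by 0.22 ± 0.04 (adjusted p = 4.96e-05) and 0.34 ± 0.02 (adjusted p = 1.75e-08). Enone reduction held 3 tested genes, with *Ptgr1* and *Vat1* higher in both, against 11.7% and 15.8% of all genes. *Vat1* rose by 0.25 ± 0.04 (adjusted p = 1.47e-07) and 0.29 ± 0.01 (adjusted p = 3.73e-09). Of the 4 epoxide hydrolases *Ephx1* alone had counts enough to be tested, and *Ephx2*, *Ephx3* and *Ephx4* held 0 to 3 counts in each library.

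Efflux pumps held 9 tested genes, of which TBHQ raised 4 and lowered 0 within LPS (*Abcc1*, *Abcc3*, *Abcc4* and *Abcb1b*, where 11.7% of all genes were higher and 12.2% lower) and raised 4 and lowered 0 within PIC (*Abcc1*, *Abcc3*, *Abcc4* and *Abcc5*, against 15.8% and 15.5%). *Abcc3* rose by 0.86 ± 0.11 within LPS (adjusted p = 2.93e-05) and 1.03 ± 0.11 within PIC (adjusted p = 5.39e-06), in 3 of 3 libraries each, and gave 0.15 ± 0.21 with TBHQ alone (adjusted p = 0.459). Like *Ephx1*, *Abcc3* was lowered by each stimulus alone, by -0.64 ± 0.13 with LPS (adjusted p = 0.000678) and -1.13 ± 0.16 with PIC (adjusted p = 1.8e-07). *Abcc4* rose by 0.57 ± 0.05 (adjusted p = 1.65e-09) and 0.66 ± 0.05 (adjusted p = 4.97e-11). Quinol conjugation held 4 tested genes, of which 1 was higher in each, near the 11.7% and 15.8% of all genes. This gene, *Ugt1a7c*, rose within LPS (0.56 ± 0.05, adjusted p = 4.79e-05) and within PIC (0.62 ± 0.13, adjusted p = 1.91e-05). Of its words 53.7% occur in other genes, mostly *Ugt1a6a*, and its counts are uncertain. *Abcb1b* is uncertain too, with 11.6% of its words shared.

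A further list of 8 antioxidant response genes serves as a reference for the TBHQ labels. TBHQ alone raised 8 of 8 (against 14.2% of all tested genes, median log2FC 1.61 against -0.00). Given before a stimulus, TBHQ raised 7 of 8 within LPS (against 11.7%, median 0.55) and within PIC (against 15.8%, median 0.40). The list is not particular to TBHQ, since LPS alone raised 7 of 8 (against 24%, median 0.82) and PIC alone 6 of 8 (against 28.6%, median 0.85). The exception was *Hmox1*, which each stimulus alone raised. In cells given TBHQ before the stimulus it was lower than with the stimulus alone, by -0.30 ± 0.04 within LPS (adjusted p = 1.97e-08) and -0.16 ± 0.03 within PIC (adjusted p = 0.00029). *Cbr3*, *Akr1b8* and *Gclm* rose by more than 0.9 on the log2 scale in all 3 settings, *Gclm* by 1.82 ± 0.03, 0.98 ± 0.03 and 1.10 ± 0.04.

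**Figure D3:**
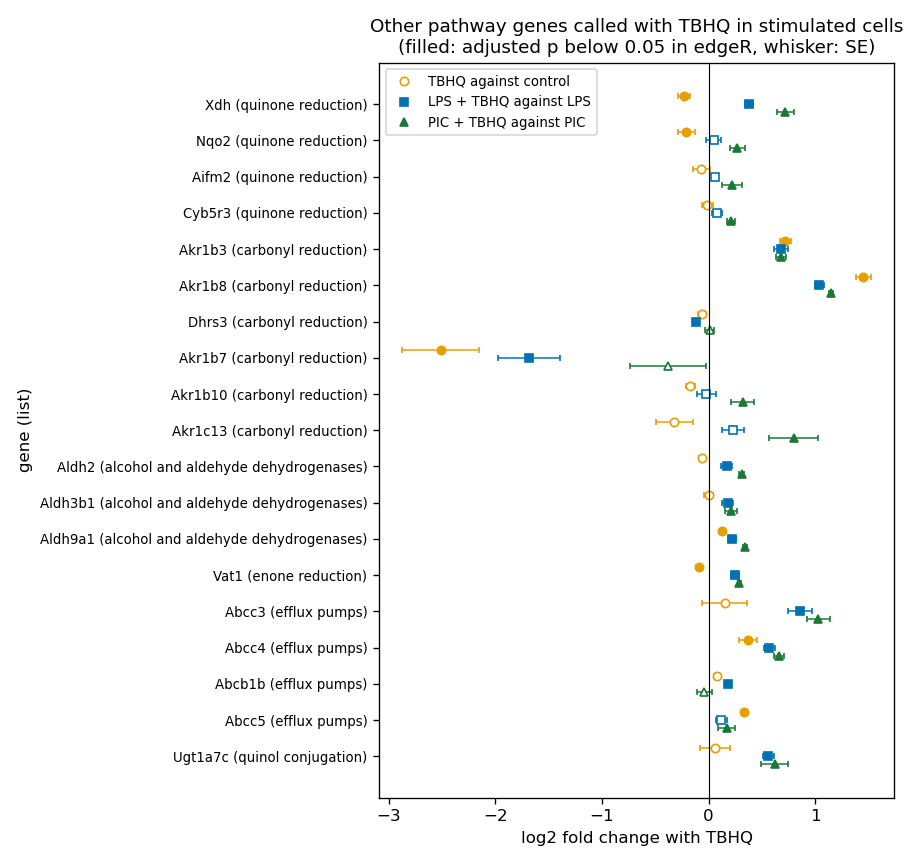
Log2 fold change with TBHQ (horizontal axis) of the other pathway genes called within LPS or within PIC (vertical axis, list in brackets), without a stimulus and with each stimulus, whiskers showing the SE (n = 3 against 3) and filled symbols an adjusted p below 0.05. *Akr1b8* lay at 1.45, 1.04 and 1.15 and *Abcc3* at 0.15, 0.86 and 1.03.

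Promoter sequences from RefSeq (GRCm38.p6, 250 bases before to 50 bases after the start of the gene) matched 7 of the 8 genes by symbol, and *Abcc1* had no entry. They were searched on both strands for the core of the antioxidant response element, TGACNNNGC, for its longer consensus of 20 letters, and for the AP-1 site, TGANTCA, whose opening letters can also open the core. The core was held by 0 of the 7 promoters, against 4038 of 32544 promoters of the same length (12.4%), and the longer consensus by 0 of 7, against 3 of 32544 (0.00922%). The AP-1 letters were held by 1 of the 7, *Adh7*, against 2535 of 32544 (7.79%). This match reads TGAGTCA on the plus strand and TGACTCA on the minus strand, at chr3:138217748-138217754, which is bases 226 to 232 of the window. A match is a description of the letters, and no match says only that these letters are not in the window. The windows of *Nqo1* (chr8:107403156-107403455, minus strand), *Cbr3* (chr16:93682969-93683268, plus strand) and *Adh7* (chr3:138217523-138217822, plus strand) are shown because the first 2 genes rose with TBHQ in all 3 settings and *Adh7* turned direction. Capitals mark the AP-1 letters.
Nqo1: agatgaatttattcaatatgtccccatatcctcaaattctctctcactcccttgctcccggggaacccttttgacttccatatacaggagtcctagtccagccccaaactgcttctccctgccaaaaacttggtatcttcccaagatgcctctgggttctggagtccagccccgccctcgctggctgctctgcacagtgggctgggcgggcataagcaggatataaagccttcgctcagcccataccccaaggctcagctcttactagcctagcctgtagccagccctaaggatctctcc
Cbr3: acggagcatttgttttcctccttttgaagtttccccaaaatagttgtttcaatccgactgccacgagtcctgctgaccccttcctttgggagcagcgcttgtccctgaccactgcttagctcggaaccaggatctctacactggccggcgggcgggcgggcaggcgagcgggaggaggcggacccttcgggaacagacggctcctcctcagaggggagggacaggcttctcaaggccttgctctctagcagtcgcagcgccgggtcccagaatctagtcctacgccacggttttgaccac
Adh7: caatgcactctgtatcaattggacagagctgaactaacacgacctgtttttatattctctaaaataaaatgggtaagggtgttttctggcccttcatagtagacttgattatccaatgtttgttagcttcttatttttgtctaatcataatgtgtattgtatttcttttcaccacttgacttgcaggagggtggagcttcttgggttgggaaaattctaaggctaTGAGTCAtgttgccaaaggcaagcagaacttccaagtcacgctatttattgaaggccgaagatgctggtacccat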

How the data were processed

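The gene counts were used as deposited. According to the submitters' processing notes the authors' sequencing provider named HISAT2 2.0.5, StringTie 1.3.3b and featureCounts 1.5.0-p3 to make the counts, with the genome written as GRCm38/mm39. Gene positions are those of the authors' files, and for 6 of the 7 genes with a promoter sequence the gene start there lies outside the GRCm38.p6 window, so these positions do not follow that build and were not mixed with it. The FPKM values were made by the authors' sequencing provider from the same alignments and were used as deposited for levels. In every library they matched counts divided by gene length and total up to a constant of 0.943 to 1.12. The constant differed by condition, at 0.943 to 0.951 in the control libraries and 1.11 to 1.12 with PIC. The TMM factors there were 1.06 to 1.07 and 0.911 to 0.915. FPKM levels and orders, and limma on FPKM, thus carry a scaling close to TMM and not total library size. Libraries were poly(A) selected and strand-specific by the study's methods, while the sample labels name both directional and non-directional libraries. Whether the counting used strand is not given in the sources used here. The 8 genes are those whose name in the count table equals a listed symbol, and the 8 genes and the pathway lists were chosen with earlier results of these data known. Of 56748 genes, 27701 had a count and 13691 passed edgeR's filterByExpr. Counts were scaled by TMM and fitted in edgeR 4.0.16 (R 4.3.3) with 1 mean per condition over 18 libraries, quasi-likelihood tests, and adjusted p values by Benjamini-Hochberg over the 13691 genes. The dispersion was estimated from all 6 conditions, with a common value of 0.001921. SE is the standard error of the difference of group means, from the variance of the replicates' log2 CPM (prior count 2) in the compared groups. It is not the error of the fitted log2FC, and the prior count narrows it at few counts. The floor of 3 counts covers counting error only, and count ratios carry an exact 95% interval of the summed counts. Alternatives were DESeq2 1.42.0, limma 3.58.1 on log2 FPKM, RLE and total library size scaling, no filter, a mean of at least 50 counts, the compared conditions alone, a replicate block, 2 stricter rules, and each library left out in turn. Replicate numbers carry no stated pairing. Shared sequence was measured as 50-base words of each gene that occur in another gene, with a remark above 10%. The code was tested on simulated data with known changes. Tables were made with pandas 2.3.3 and scipy 1.17.1 and figures with matplotlib 3.10.9, under Python 3.11.15 with numpy 2.4.6.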

Additional observations from a re-analysis of the deposited data

Results flagged for a closer look

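The effect of TBHQ differed between stimulated and unstimulated cells, as a log2 difference that passed its test, for 5 of the 8 genes, beside 9.14% (positive) and 9.33% (negative) of all tested genes for LPS minus unstimulated and 13.3% and 12.5% for PIC minus unstimulated. For *Adh7* it was 1.38 for LPS minus unstimulated and 1.77 for PIC minus unstimulated, with the direction turned. For *Ptgr1* the differences were 0.82 with LPS and 0.90 with PIC, for *Ephx1* 0.83 and 0.72, and for *Akr1a1* 0.24 and 0.28, the last with the direction turned. The 0.72 of *Ephx1* was no longer called in limma (adjusted p = 0.073 and 0.0662) or without control replicate 3 (0.085). The fall of *Akr1a1* with TBHQ alone, on which its turn rests, was no longer called without TBHQ replicate 1 (-0.08, adjusted p = 0.0646). By total library size the PIC minus unstimulated difference of *Cbr1* was called as well (0.33, adjusted p = 0.035). For *Abcc1* the differences were -0.61 with LPS and -0.70 with PIC, a smaller rise with a stimulus than without. Harvest time is part of all of these differences, since TBHQ alone was lysed at 4 h.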

How the results depend on the processing

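The cause of the changes below was not tested. Of the member counts per comparison, 100 of 121 kept within 1.5 times the reported count under the other alternatives and 195 of 198 with 1 library left out, and of the counts over all genes 97 of 121 and 197 of 198. Of the log2FC values of the 8 genes, 743 of 778 kept direction and call under the other alternatives (10 reversed, 4 newly called, 21 no longer called) and 1540 of 1584 with 1 library left out (16 reversed, 2 newly called, 26 no longer called). *Nqo1* had no value where a mean of 50 counts was required, nor in LPS against control, PIC against control and PIC against LPS with the compared conditions alone. Under an adjusted p below 0.01 with a |log2FC| above 1 or above 2, the study threshold, the genes called among the 8 were 3 and 1 in TBHQ against control, 2 and 0 in LPS against control, 1 and 0 in PIC against control, 2 and 0 in LPS + TBHQ against LPS, 3 and 1 in PIC + TBHQ against PIC, 0 and 0 in PIC against LPS, 1 and 0 for the difference of the TBHQ effect, LPS minus unstimulated, and 1 and 0 for PIC minus unstimulated; above 2 it was 1 in LPS + TBHQ against control and 1 in PIC + TBHQ against control. Over all genes the same rules called 190 and 26 in TBHQ against control, 880 and 224 in LPS against control, 1645 and 489 in PIC against control, 183 and 53 in LPS + TBHQ against LPS, 233 and 41 in PIC + TBHQ against PIC, 177 and 42 in PIC against LPS, 591 and 132 in LPS + TBHQ against control, 1100 and 295 in PIC + TBHQ against control, and for the difference of the TBHQ effect 13 and 0 (PIC minus LPS), 165 and 40 (LPS minus unstimulated) and 252 and 49 (PIC minus unstimulated). In PIC against LPS, 3 of 8 genes were called under DESeq2, 3 with the conditions compared only and 3 with no filter on low counts, beside 3378, 3293 and 3493 of all genes. With each library left out in turn, 3 to 5 of the 8 were called there. For PIC minus LPS, 380 genes were called with no filter, 129 with limma on log2(FPKM + 0.1), and 160 to 354 with each library left out. Direction turned with total library size for *Cbr3* in LPS against control (-0.07), *Ephx1* (-0.11) and *Akr1a1* (-0.02) in PIC against LPS and *Cbr1* in PIC + TBHQ against control (-0.03). It turned for the PIC minus unstimulated difference of *Nqo1* with limma on log2(FPKM + 1) (0.12) and of *Cbr3* with DESeq2, RLE, a mean of 50 counts and limma on log2(FPKM + 0.1) (-0.01 each) and limma on log2(FPKM + 1) (-0.03). With each library left out in turn, the log2FC ran from -0.00 to 0.12 for *Ptgr1* and from -0.28 to 0.07 for *Ephx1* in TBHQ against control, -0.07 to 0.01 for *Cbr1* and -0.08 to 0.08 for *Cbr3* in LPS against control, -0.18 to 0.01 for *Adh7* in PIC against control, -0.10 to 0.16 for *Ephx1* in PIC against LPS, -0.26 to 0.01 for *Ephx1* in PIC minus LPS, and -0.07 to 0.11 for *Cbr3* in PIC minus unstimulated. Leaving out 1 library leaves 2 in its group. Total library size moved the percent of called genes that were higher from 49.8 to 35 in LPS against control, 48.7 to 26.4 in PIC against control, 48.9 to 59.5 in LPS + TBHQ against LPS, 50.6 to 70.3 in PIC + TBHQ against PIC, 53.7 to 18.4 in PIC against LPS, 48.4 to 36.1 in LPS + TBHQ against control, 50.4 to 30 in PIC + TBHQ against control, 45 to 76.1 in PIC minus LPS (29.1 with DESeq2) and 51.4 to 70 in PIC minus unstimulated. A replicate block changed no call of the 8 genes. It took the genes called from 3973 to 4036 in TBHQ against control, and pairs of libraries with the same replicate number had r slightly above that of pairs with different numbers, both near 0 (45 pairs, median 0.026, from -0.0719 to 0.142, and 90 pairs, median -0.0114, from -0.166 to 0.125), with 2 of 45 and 1 of 90 above 0.1.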
